A study of Mus musculus with 18 samples.

Results

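The genes described here are noncoding snoRNA host genes, whose introns carry small nucleolar RNAs (snoRNAs) and whose spliced transcripts do not encode a known protein. Members were chosen by gene name, and 9 were named: Gas5, Snhg1, Snhg3, Snhg4, Snhg5, Snhg6, Snhg8, Snhg12 and Zfas1. Of these, 8 had a row in both strains' count tables, among 28374 genes matched between the tables, and Zfas1 was not analysed here. The RNA came from female F1 129S1/Cast mice of genotype Xist+/-, in which the X chromosome that is silenced is the Cast one in every cell. CD23+ B cells from spleen were compared in 2 groups of 3 samples: naive cells without treatment, and cells stimulated in vitro with 1 µM CpG, an oligonucleotide ligand of the receptor TLR9, for 24 h. All 6 samples are Xist+/-, with 586 to 922 Xist reads in the 129 tables and 4613 to 6930 in the Cast tables, and no culture without CpG was among them, so the effects of CpG and of time in culture cannot be told apart. The ages of the mice are not given in the labels, which also do not say whether each sample came from 1 mouse. Total RNA was sequenced, and each library was counted once on the 129 and once on the Cast genome, so each gene has a 129 read count and a Cast read count. The other 12 samples of the series, B cells and fibroblasts of a B6/Cast cross, were not analysed here.

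A snoRNA is released when the intron that holds it is spliced out and trimmed. C/D-box snoRNAs guide 2′-O-methylation of ribosomal RNA, H/ACA-box snoRNAs guide its pseudouridylation, and a few, such as U17 (Snora73), are needed for cleavage of the ribosomal RNA precursor. Many host RNAs start with a terminal oligopyrimidine tract, as ribosomal protein mRNAs do, and once spliced they are targets of nonsense-mediated decay, so the level of a host RNA reflects both its synthesis and its decay. Resting B cells that are stimulated grow and increase ribosome production before they divide.

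Among the members, Gas5 (chr1:161034422-161038539, plus strand), named for its accumulation in growth-arrested cells, Snhg1 (chr19:8723475-8726443, plus strand), Snhg5 (chr9:88521050-88522929, minus strand) and Snhg6 (chr1:9941959-9944118, minus strand) host C/D-box snoRNAs. Snhg3 (chr4:132348014-132353686, minus strand) hosts the H/ACA-box snoRNAs Snora73a and Snora73b, Snhg4 hosts Snora74a, and Snhg8 (chr3:123507552-123508404, minus strand) hosts Snora24. Snhg12 (chr4:132308623-132311024, plus strand) hosts snoRNAs of both classes. Positions are from the GENCODE annotation of GRCm38, and all members are autosomal. In that annotation Snhg3 shares 5592 nt with the protein-coding gene Rcc1 on its own strand and 1611 nt with Gm17300 on the opposite strand. Gas5 shares 428 nt with Zbtb37 and Snhg6 shares 127 nt with Mcmdc2, both on the opposite strand. How the counting treated strand and overlapping genes is not given in the sources used here, so the counts of these 3 members are uncertain to that extent.

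The RefSeq start of transcription is shown for 6 members, because a pyrimidine tract at the start, where present, can be read from the sequence. Each line holds 40 bases before and 40 bases from the annotated start, 5′ to 3′ on the gene's strand, in RefSeq's GRCm38.p6 assembly, which is the C57BL/6J reference and not 129 or Cast sequence. Capitals mark a C within 5 bases of the start that is followed by at least 4 further pyrimidines.
Gas5, chr1:161035126-161035205, plus strand: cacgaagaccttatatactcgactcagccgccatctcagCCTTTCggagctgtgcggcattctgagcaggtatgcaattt
Snhg12, chr4:132308638-132308717, plus strand: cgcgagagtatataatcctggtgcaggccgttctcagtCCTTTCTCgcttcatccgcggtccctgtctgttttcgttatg
Snhg8, chr3:123508297-123508376, minus strand: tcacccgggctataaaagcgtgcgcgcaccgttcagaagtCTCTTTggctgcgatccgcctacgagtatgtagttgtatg
Snhg3, chr4:132353647-132353726, minus strand: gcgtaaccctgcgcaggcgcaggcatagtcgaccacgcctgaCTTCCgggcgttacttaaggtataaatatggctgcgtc
Snhg1, chr19:8723447-8723526, plus strand: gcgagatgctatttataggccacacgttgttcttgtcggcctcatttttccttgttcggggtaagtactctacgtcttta
Snhg5, chr9:88522858-88522937, minus strand: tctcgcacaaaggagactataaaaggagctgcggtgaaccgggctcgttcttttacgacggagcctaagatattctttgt
A tract of this kind was found in 4 of the 7 members with a window (57.1%; Zfas1 has a window but no tract), namely Gas5 at the second of its RefSeq starts, Snhg12, Snhg8 and Snhg3, and in 21.2% of the 27025 genes with a window. On the lists of other snoRNA hosts used further below, the search found a tract in 33.3% of 12 noncoding hosts. Among 22 protein-coding hosts the share was 22.7%, near that of all genes. No window was used for Snhg4 or Snhg6. Snhg1 and Snhg5 have pyrimidine runs a few bases after the annotated start that the search did not count. The E-box CACGTG, a motif bound by MYC and related factors that reads the same on both strands, was in none of the 7 members' windows of 250 bases before to 50 bases after the start and in 8.09% of all windows. It was in 16.7% of the 12 other noncoding hosts and 18.2% of the 22 protein-coding hosts. A match or its absence describes these letters only.

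The Snhg3 snoRNAs are shown because they were the only snoRNAs inside a member that had more than 2 reads in any sample. Both are given 5′ to 3′ as in the GRCm38 annotation, with the ACA box in capitals.
Snora73a, chr4:132352775-132352979, minus strand: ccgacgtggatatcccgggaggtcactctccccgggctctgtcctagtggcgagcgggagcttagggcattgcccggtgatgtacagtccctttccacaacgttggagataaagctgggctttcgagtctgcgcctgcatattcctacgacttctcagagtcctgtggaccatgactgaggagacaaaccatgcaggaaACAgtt
Snora73b, chr4:132352322-132352526, minus strand: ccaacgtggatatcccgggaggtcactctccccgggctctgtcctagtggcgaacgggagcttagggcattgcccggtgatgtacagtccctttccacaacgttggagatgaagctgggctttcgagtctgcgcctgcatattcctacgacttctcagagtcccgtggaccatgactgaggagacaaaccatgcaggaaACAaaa
The 205-nt sequences matched at 198 positions and differed at 7 (96.6% identity), so how reads were divided between the 2 genes is uncertain.

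Over both tables, reads assigned to genes numbered 1987266 to 3321753 per table and sample. Reads tallied as having no feature made up 57.9% to 67.1% of the naive tables' reads and 44.5% to 56.7% of the CpG tables' reads. The cell type markers moved with the groups. In the 129 tables the 7 B cell markers used, among them Cd79a and Ms4a1, summed to 8133 to 10388 reads per 1000000 gene reads (CPM) in naive samples and 2869 to 3439 CPM after CpG. The 13 macrophage markers, such as C1qa and Vcam1, summed to 3251 to 7038 CPM in naive samples and 28.3 to 37.0 CPM after CpG, and all 13 were lower in every CpG sample. The 7 T cell markers summed to 33.3 to 47.3 CPM and 0 to 0.711 CPM, and the 2 erythroid markers with a row to 40.8 to 109 CPM and 1.03 to 1.42 CPM. The 5 neutrophil markers with a row summed to at most 17.6 CPM in any 129 table, with Camp at 0 in all of them, and the 4 plasma cell markers to 188 to 346 CPM in naive samples and 221 to 275 CPM after CpG. That sum joins opposite shifts: 2 of the 4 were higher in every CpG sample than in every naive sample, and 1 was lower. The part of these shifts in the members' changes was not tested, and in bulk RNA fewer cells of a type and less RNA per cell cannot be told apart.

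As a group, the host RNAs took a larger share of all gene reads after CpG. With both alleles summed, the 8 members made up 0.157%, 0.155% and 0.154% of gene reads in naive samples 1, 2 and 3, and 0.370%, 0.403% and 0.344% in CpG samples 1, 2 and 3. The naive samples were nearly equal, and every CpG sample had more than double their share. Gas5 alone gave 64.2% to 66.9% of the members' reads in naive cells and 59.3% to 59.9% after CpG.

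**Figure D1:**
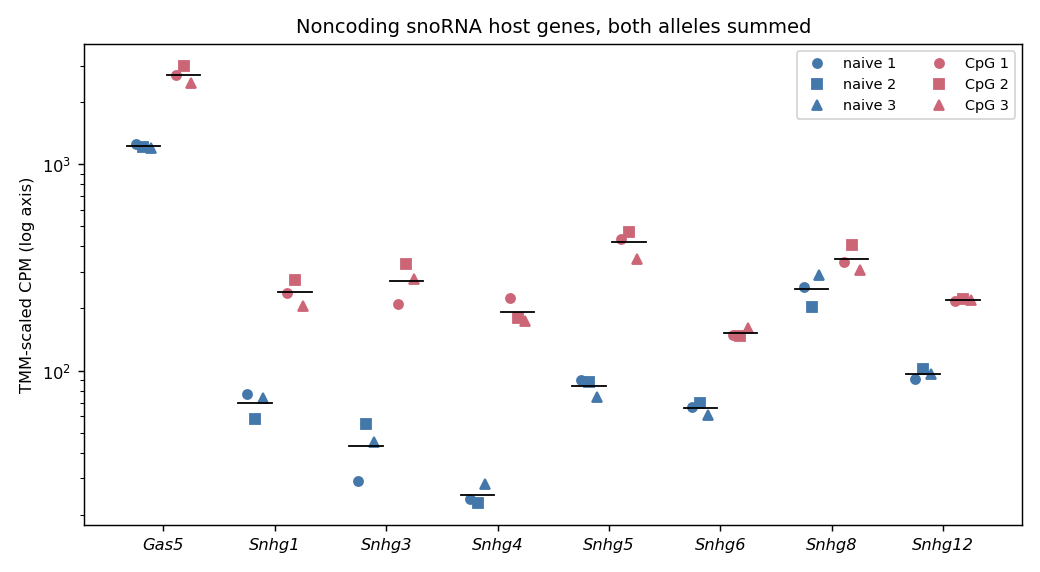
TMM-scaled CPM with both alleles summed (log axis) for the 8 members, with 1 point per sample, shapes for the replicate number and bars for the group mean. For all 8 genes the 3 CpG samples lie above the 3 naive samples, with the smallest distance at Snhg8 and the largest at Snhg4.

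With both alleles summed, all 8 members rose after CpG at an edgeR adjusted p below 0.05, beside 34.2% of the 10343 genes tested that rose. For all 8, every CpG sample lay above every naive sample, which held for 36.8% of genes tested. Their log2 changes ran from 0.48 to 2.95, with a median of 1.49, while the median over all genes tested was -0.01. In the 129 tables alone 6 of 8 members rose (28.2% of 10581 genes did), and in the Cast tables alone 7 of 8 did (30.7% of 10365 genes). All 8 fitted changes were positive in both. Groups did not overlap, with every CpG sample higher, for 6 of 8 members in the 129 tables (32.6% of genes) and for 6 of 8 in the Cast tables (33.7% of genes). A block for the replicate number gave counts of 8 of 8 for 129 reads (33.1% of genes) and 7 of 8 for Cast reads (32.9% of genes). The samples of each strain table come from the same libraries, so the 2 tables are not independent sets of samples. The samples numbered 2 were those in which the allelic reads of Gas5 differed most from the others. Without both of them, 5 members rose by their 129 reads and 7 by their Cast reads. Genes called there in either direction numbered 5124 of 10794 by 129 reads and 6138 of 10549 by Cast reads. These join rises and falls, so they are not comparable with the shares of genes that rose given above.

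Snhg4 and Snhg3, both H/ACA-box hosts, had the largest fitted changes, while Snhg8, also an H/ACA-box host, had the smallest. Levels are given as counts per 1000000 after TMM scaling (TMM-scaled CPM). For Snhg4, naive samples 1, 2 and 3 had 23.9, 22.8 and 28.3 TMM-scaled CPM and the CpG samples had 224, 180 and 174. The groups were far apart, with all CpG samples several-fold above the highest naive sample. The log2 change was 2.95 ± 0.15 (SE), a 7.72-fold increase (edgeR adjusted p = 2.95e-07). Taken singly, the 129 reads gave 3.05 ± 0.18 and the Cast reads 2.80 ± 0.17 (edgeR adjusted p = 1.97e-05 and 1.81e-06). Snhg4 lies at chr18:35553410-35558316 in RefSeq's annotation of GRCm38. Its counts were low in naive cells, with 40 to 63 reads per table and sample.

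For Snhg3, the host of the U17 snoRNAs, the naive samples had 29.1, 55.3 and 45.3 TMM-scaled CPM and the CpG samples 211, 330 and 278. Sample 1 was the lowest of its group in both conditions, and the groups did not overlap. The log2 change with both alleles summed was 2.66 ± 0.25 (SE), or 6.31-fold (edgeR adjusted p = 3.59e-05). The 129 reads gave 2.63 ± 0.56 and the Cast reads 2.62 ± 0.17 (edgeR adjusted p = 0.00971 and 2.34e-06). In the 129 tables the call was lost with both samples numbered 2 left out (edgeR adjusted p = 0.0816) or both numbered 3 (0.0729).

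Snhg5, the host of the C/D-box snoRNA U50 in its a and b copies, had 89.8, 87.6 and 74.3 TMM-scaled CPM in naive cells and 434, 471 and 347 after CpG. Sample 3 was the lowest of its group in both conditions, and the groups stood well apart. Its log2 change was 2.31 ± 0.14 (SE), or 4.97-fold (edgeR adjusted p = 8.27e-07). Snhg1, the host of a run of C/D-box snoRNAs that includes Snord22, had 77.1, 58.1 and 73.8 in naive cells and 237, 276 and 205 after CpG on the same scale. Naive sample 2 was the lowest of its group and CpG sample 2 the highest of its own, and no CpG sample came near the naive range. Its log2 change was 1.78 ± 0.15 (SE), or 3.44-fold (edgeR adjusted p = 5.37e-06). In both tables taken singly the changes of Snhg5 and Snhg1 passed the test, at 2.12 and 1.65 for the 129 allele and 2.41 and 1.84 for the Cast allele.

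Gas5, Snhg6 and Snhg12 had summed changes of similar size, between 1.15 and 1.21 on the log2 scale. Gas5, the most abundant member by reads, had 1258, 1209 and 1204 TMM-scaled CPM in naive cells and 2695, 2995 and 2462 after CpG. Replicates lay close together within each group when both alleles were summed, and every CpG sample was about double the naive level. The log2 change was 1.15 ± 0.12 (SE), or 2.22-fold (edgeR adjusted p = 1.75e-05).

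The separate tables of Gas5 gave another picture of its error. The 129 reads were 2698, 86 and 2227 in naive samples 1, 2 and 3 and 6380, 279 and 6393 in CpG samples 1, 2 and 3. The Cast reads were 2573, 5163 and 2163 in naive samples and 6753, 14735 and 6216 in CpG samples. Both samples numbered 2 had almost no 129 reads and about double the Cast reads of the other samples of their group, so in TMM-scaled CPM the groups overlapped in both tables. The change in the 129 tables was 1.00 ± 1.50 (SE) on the log2 scale (edgeR adjusted p = 0.607), and with the replicate number as a block it was 1.12 ± 0.14 (edgeR adjusted p = 3.21e-06). With both samples numbered 2 left out it was 0.96 (edgeR adjusted p = 0.000936). The Cast reads of Gas5 changed by 1.18 ± 0.38 (edgeR adjusted p = 0.0224), but the adjusted p rose to 0.105 without CpG sample 2, where the change was 0.68, and to 0.0771 and 0.0683 without naive samples 1 and 3. DESeq2 gave an adjusted p of 0.0659 there, and edgeR without a low-count filter gave 0.15. Without both samples numbered 1 the edgeR adjusted p of the Cast change was 0.0768.

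Snhg6, the host of Snord87, had 66.4, 69.6 and 61.2 TMM-scaled CPM in naive cells and 148, 146 and 160 after CpG with both alleles summed. The samples within a group were close, and the groups did not overlap. The change was 1.21 ± 0.10 (SE), or 2.31-fold (edgeR adjusted p = 6.21e-06). In the 129 tables, sample 3 was low in both conditions, with 53 reads against 138 and 170 in the naive group and 185 against 388 and 408 in the CpG group. There the change was 1.15 ± 0.45 (edgeR adjusted p = 0.0698), and with the replicate number as a block it was 1.17 ± 0.14 (edgeR adjusted p = 3.17e-06). Without both samples numbered 3 it was 1.13 (edgeR adjusted p = 0.00515).

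Snhg12, the host of Snora16a, Snora44, Snora61 and Snord99, had 90.9, 102 and 96.6 TMM-scaled CPM in naive cells and 218, 222 and 221 after CpG. The CpG samples were nearly equal, and all lay above the naive samples. Its change was 1.19 ± 0.09 (SE), or 2.28-fold (edgeR adjusted p = 3.70e-06), and it passed the test in each table, although the 129 call was lost with both samples numbered 3 left out (edgeR adjusted p = 0.0823).

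Snhg8, the host of Snora24, had the smallest change. Its levels were 253, 203 and 292 TMM-scaled CPM in naive cells and 335, 405 and 306 after CpG. Naive sample 3 came close to CpG sample 3, although the groups did not overlap with both alleles summed. The change was 0.48 ± 0.15 (SE), or 1.40-fold (edgeR adjusted p = 0.0183). It passed in the 129 tables at 0.52 ± 0.17 (edgeR adjusted p = 0.0291) but missed the threshold on the Cast side at 0.40 ± 0.18 (edgeR adjusted p = 0.0776), where the groups overlapped. The 129 call was lost in 5 of the 6 fits that left out 1 sample, with adjusted p-values of up to 0.0885, and with both samples numbered 1 (0.106) or 2 (0.131) left out. The Cast change was 0.26 without CpG sample 2 (edgeR adjusted p = 0.205), and it passed without naive sample 3 (0.0487) or CpG sample 3 (0.0328). It also passed without both samples numbered 3, at 0.65 (edgeR adjusted p = 0.0301). Without both samples numbered 2 the change of Snhg8 was 0.29 by its 129 reads and 0.09 by its Cast reads (edgeR adjusted p = 0.131 and 0.548), so its size depended on those samples.

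**Figure D2:**
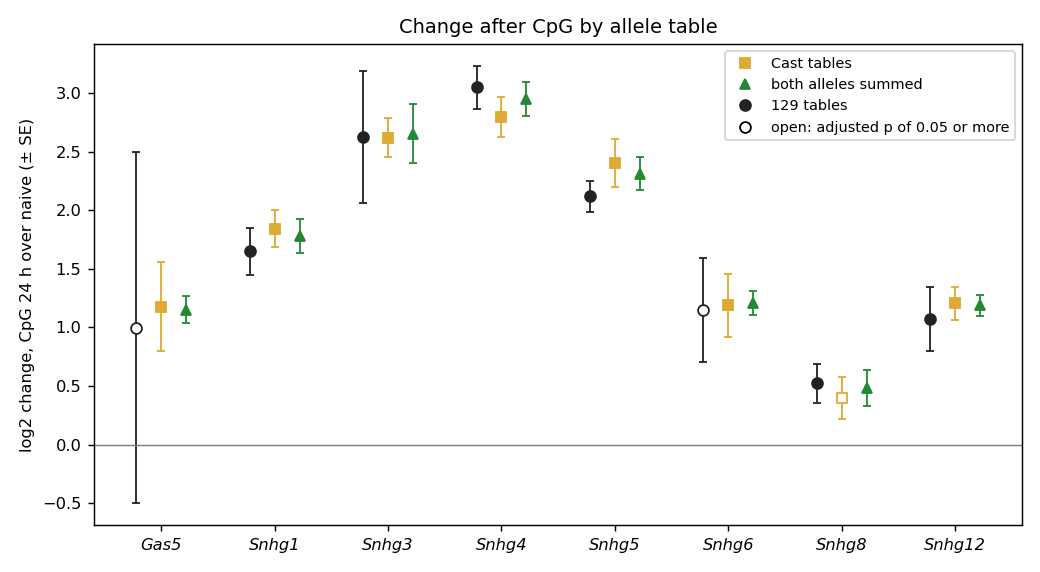
Fitted log2 change after 24 h of CpG (± SE, 3 samples against 3) for each member in the 129 tables, the Cast tables and with both alleles summed. Filled symbols passed an edgeR adjusted p of 0.05; Gas5 in the 129 tables has an SE of 1.50 against 0.12 with both alleles summed.

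Per kilobase of annotated exon the order of the members differed between the groups, among the 7 with a GENCODE length (Snhg4 has none). In naive cells Gas5 had 271.6 ± 8.2 and Snhg8 243 ± 38.2 CPM per kilobase (SD, n = 3), and their ranges overlapped. Snhg6 (47.9), Snhg5 (40.5), Snhg3 (36.7), Snhg12 (33.6) and Snhg1 (19.5) followed on that scale. The neighbours Snhg5 and Snhg3, and Snhg3 and Snhg12, overlapped, and the other steps did not. After CpG, Gas5 (590.2 ± 48.0) stood above Snhg8 (334 ± 42.7) with no overlap, followed by Snhg3 (226), Snhg5 (197), Snhg6 (108), Snhg12 (75.0) and Snhg1 (65.8). Of those steps, only Snhg3 to Snhg5 and Snhg12 to Snhg1 overlapped. The lengths are those of all annotated exons joined, and isoforms in use were not determined. For Snhg1 (2969 nt), Snhg12 (2402 nt) and Snhg8 (853 nt) they cover the annotated gene from end to end, introns included. For Snhg3 they come to 986 nt, a small part of its annotated gene. The order of the members on this scale therefore depends on the annotation too.

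Within a sample, the 2 alleles of a gene share the library, and the share of a member's reads that fell in the Cast table is called its Cast share. Over all matched autosomal genes the Cast share was 52.7% ± 0.8 (SD, n = 3) in naive samples and 52.9% ± 0.8 in CpG samples. No member's Cast-to-129 ratio changed after CpG at an edgeR adjusted p below 0.05 (0 of 8, beside 1.01% of 10089 autosomal genes). None had an unadjusted p below 0.05, and DESeq2 also called 0. In this edgeR fit the SE of the log2 change was 3.03 for Gas5, 0.84 for Snhg6 and 0.62 for Snhg3. It could thus miss large changes of their ratio. With the replicate number as a block these SEs were 0.08, 0.17 and 0.17. The blocked fit likewise called 0 of 8, beside 7.78% of genes, and 1 member, Snhg5, had an unadjusted p below 0.05. In that fit the members' changes ran from -0.23 (Snhg4) to 0.29 (Snhg5) on the log2 scale. Snhg5 moved from 53.4% ± 5.7 to 58.4% ± 4.5 (SD, n = 3), higher after CpG within each number, by 5.72, 2.10 and 7.32 percentage points, with an edgeR adjusted p of 0.19 in the blocked fit. For Snhg4 and Snhg3 a naive sample had only 99 to 240 reads over both alleles, so small shifts of their ratio were not detectable at this depth.

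Between alleles, 1 of 8 members differed in naive cells (beside 21.4% of 9347 genes) and 2 of 8 after CpG (beside 21.3% of 9150 genes), all with more Cast reads. More Cast reads were called for 13.2% of genes in naive cells and 13.1% after CpG. Snhg8 had Cast shares of 61.5%, 60.9% and 59.3% in naive samples 1, 2 and 3 and 58.9%, 60.8% and 54.8% in the CpG samples. Every sample was above the all-gene share, with CpG sample 3 nearest to it. The log2 ratio of Cast to 129 reads was 0.62 ± 0.07 (SE) in naive cells (edgeR adjusted p = 0.00531) and 0.48 ± 0.09 after CpG (edgeR adjusted p = 0.0236), against medians of 0.12 over all genes tested in each group. Snhg5 passed after CpG, at 0.49 ± 0.12 (edgeR adjusted p = 0.0455), and not in naive cells, at 0.20 ± 0.16 (edgeR adjusted p = 0.425). With each allele's own library size, neither passed after CpG (edgeR adjusted p = 0.0565 for Snhg8 and 0.117 for Snhg5), while Snhg8 still passed in naive cells at 0.51 (edgeR adjusted p = 0.0118). Both calls after CpG were also lost without CpG sample 1 (edgeR adjusted p = 0.0515 for Snhg8 and 0.061 for Snhg5) and without CpG sample 2 (0.108 and 0.208). Without CpG sample 1 another member passed, Snhg3, with fewer Cast reads at -0.52 on the log2 scale (edgeR adjusted p = 0.0192). Snhg12 was not called, but its log2 ratios were 0.63 ± 0.24 in naive cells and 0.76 ± 0.26 after CpG (edgeR adjusted p = 0.141 and 0.143). Each of its samples was above the all-gene share. The SEs in naive and CpG samples were 1.82 and 1.83 for Gas5, 0.48 and 0.58 for Snhg6, and 0.40 and 0.37 for Snhg3. These tests could thus miss large allele differences of those members. Reads map to 2 genomes with their own annotations, and the part of such differences in these ratios was not tested.

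The larger differences in Cast share lay between replicate numbers and not between conditions. A test of the Cast-to-129 ratio between the 3 numbers over all 6 samples, added after the shares were seen, called 5 of 8 members, beside 14.4% of 10089 autosomal genes. For Gas5 the Cast share was 48.8%, 98.4% and 49.3% in naive samples 1, 2 and 3 and 51.4%, 98.1% and 49.3% in CpG samples 1, 2 and 3 (95% Wilson interval of naive sample 2, 98.0% to 98.7%). Numbers 1 and 3 were near an even split and number 2 was almost entirely Cast, alike before and after stimulation (edgeR adjusted p = 3.51e-69). The range between numbers was 49.0 percentage points, while over 7264 autosomal genes the median range was 5.61 points, the 90th percentile 21.8 and the 99th 48.6.

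Snhg6 differed in number 3. Its Cast share was 50.4%, 43.7% and 76.2% in naive samples and 46.3%, 44.4% and 77.4% in CpG samples (edgeR adjusted p = 3.30e-16). Number 3 stood alone in both conditions, and the intervals of numbers 1 and 2 overlapped. On chromosome 4, number 1 was the one that differed: Snhg3 had 67.2%, 44.6% and 36.4% in naive samples and 64.0%, 40.1% and 42.1% after CpG (edgeR adjusted p = 2.53e-11). Snhg12, 43.3 kb away on the same chromosome, had 70.6%, 53.4% and 58.0% in naive samples and 72.9%, 55.3% and 59.8% after CpG (edgeR adjusted p = 9.04e-08). Both members had their highest Cast share in number 1 in both conditions. Snhg5 had a smaller spread, with means of 60.3%, 56.8% and 50.5% for numbers 1, 2 and 3 (edgeR adjusted p = 0.0122).

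Snhg1, Snhg4 and Snhg8 were not called between numbers, with edgeR adjusted p-values of 0.332, 0.643 and 0.568. Their ranges between numbers were 7.34, 8.07 and 3.83 percentage points, and for Snhg8 that was below the median of autosomal genes.

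**Figure D3:**
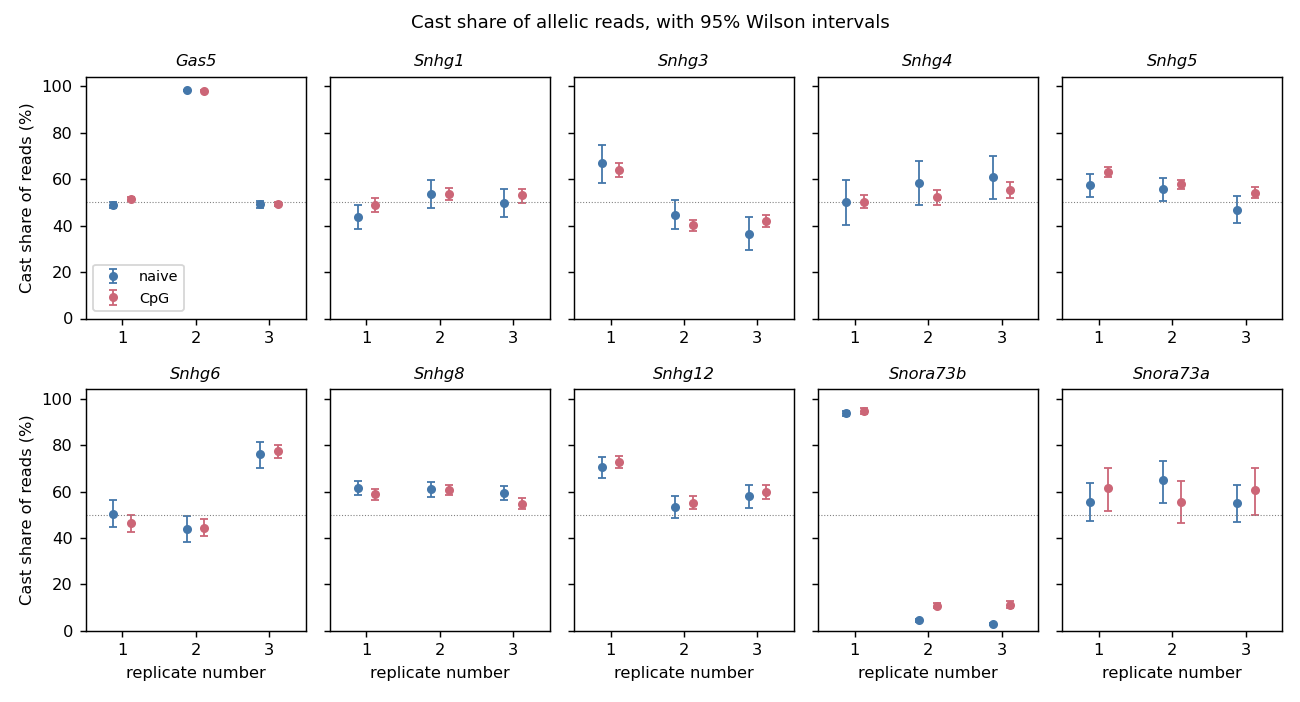
Cast share of allelic reads by replicate number (95% Wilson intervals, which cover counting error only) in naive and CpG samples for the 8 members and for Snora73b and Snora73a. For Gas5, naive and CpG samples with the same number lie together, near 98% in number 2 and near 50% in the others, while Snora73a in number 2 has 64.8% and 55.7%.

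Genes beside some of these members were read in the same way, with mixed results. Among genes that had 30 or more reads in each sample, 9 of those nearest to Gas5 were taken, and their Cast shares had a median of 70.7% in number 2 and 48.9% and 49.4% in numbers 1 and 3. Going outward from Gas5, number 2 had 85.6% at Zbtb37 and 87.0% at Rabgap1l on one side and 86.2% at Klhl20 and 93.1% at Prdx6 on the other, although Prdx6 was also at 82.6% and 80.3% in numbers 1 and 3. The outermost genes of the 9, Fam20b (43.5%) and Pigc (62.2%), had mean shares in number 2 close to those of the other numbers. For Pigc the conditions differed. Number 2 had 72.1% against 56.9% and 48.1% in numbers 1 and 3 in naive samples, and 52.4% against 71.0% and 60.2% after CpG. By the mean of both conditions, none of these neighbours reached the share of Gas5 itself. Beside Snhg6, number 3 had 85.4% at Rrs1, 72.1% at Vcpip1 and 62.0% at Sgk3, each above both other numbers, while Arfgef1 on the other side had 53.7%, beside 53.8% and 53.6% in numbers 1 and 2. Of the genes between Snhg12 and Snhg3, Trnau1ap had 65.9% in number 1 and 47.5% and 50.4% in the others, while Rcc1 had 49.1%, 42.6% and 47.8%. The median of the 10 neighbours of Snhg3 was 50.03%, 45.04% and 49.1% in numbers 1, 2 and 3. Those 10 included the member Snhg12 and the snoRNAs Snora73a and Snora73b inside Snhg3 itself. Beside Snhg8, whose own share was 60.2%, 60.9% and 57.0%, the neighbours' median was 63.9%, 65.9% and 78.5%, but single genes went both ways. Number 3 was highest from Camk2d to Ap1ar, which lie 3088 to 4300 kb away on one side. On the other side it was lowest at the nearest gene, Mettl14 (47.1%, against 80.0% and 76.1%). It was also lowest at Sec24d (75.3%, against 86.0% and 86.7%), and highest by smaller margins at Dnttip2, Bcar3 and 1810037I17Rik. These neighbours were given as values and no test was made of them as a group.

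**Figure D4:**
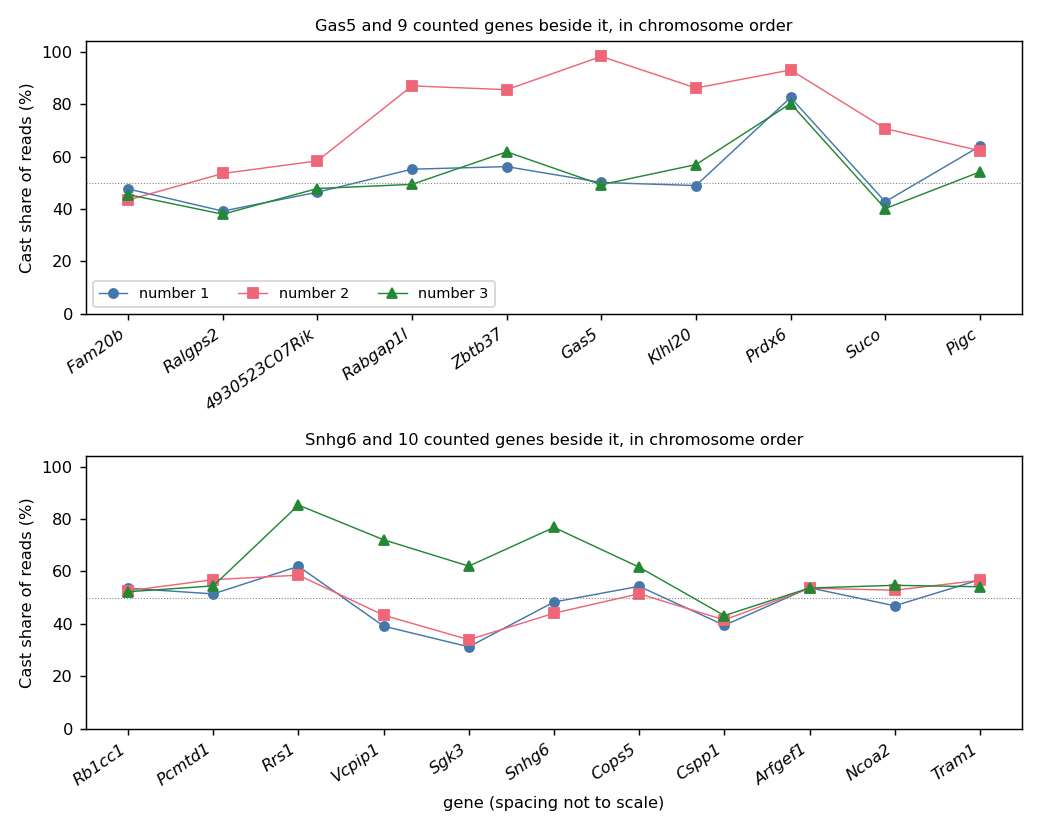
Cast share, as the mean of the naive and CpG sample with the same number, for Gas5 with 9 counted genes beside it and Snhg6 with 10, in chromosome order (spacing not to scale). Number 2 stands above the others from Ralgps2 to Suco around Gas5, and number 3 from Rrs1 to Snhg6. Number 3 is also highest, by smaller margins, at Cops5, Cspp1 and Ncoa2 (61.6%, 43.2% and 54.7%).

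The snoRNAs themselves were almost unmeasured in these libraries. GENCODE places 32 snoRNA entries inside 8 of the members on the same strand, Zfas1 included, of which 26 had a matched row, and 23 of those had 0 reads in all 6 samples of both tables. Snord87 in Snhg6 had 0 to 2 reads per sample. These counts limit reads assigned to the snoRNA rows and not the snoRNAs: all 23 rows at 0 lie inside an annotated exon of their host, while Snord87, Snora73a and Snora73b do not.

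Snora73b had 2296, 3123 and 6717 reads over both alleles in naive samples 1, 2 and 3 and 1096, 2907 and 1985 in CpG samples. Naive sample 3 was far above the rest, and the groups overlapped. Its change was -1.38 ± 0.54 (SE) on the log2 scale with both alleles summed (edgeR adjusted p = 0.0573), while the change of its host Snhg3 was 2.66. Its Cast share was 93.7%, 4.48% and 3.07% in naive samples and 94.7%, 10.8% and 11.2% after CpG, so number 1 was almost all Cast and the other two almost all 129 (edgeR adjusted p = 0.00761 between numbers). Snora73a had 135, 105 and 142 reads in naive samples and 106, 115 and 86 after CpG. It fell by 0.63 ± 0.21 on the log2 scale (edgeR adjusted p = 0.0251), with every CpG sample below every naive sample in TMM-scaled CPM (21.7, 22.9 and 16.8 against 32.2, 24.2 and 38.9). The 129 reads alone gave -0.71 ± 0.33 (edgeR adjusted p = 0.101), and its Cast share stayed between 54.9% and 64.8%.

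Other genes of the same pathway were read from lists. Among 13 other noncoding snoRNA hosts, 5 were tested in the 129 tables, of which 3 rose and 1 fell, and 6 in the Cast tables, of which 4 rose and 1 fell. Over all genes tested 27.0% fell by their 129 reads and 31.5% by their Cast reads. Snhg15 rose by 1.10 ± 0.20 on the 129 side and 1.15 ± 0.14 on the Cast side, and Epb41l4aos by 0.99 ± 0.30 and 0.82 ± 0.15 (log2 change ± SE). Snhg17 rose by 0.54 ± 0.14 and 1.20 ± 0.14, and Snhg20 fell by 0.86 ± 0.13 and 0.57 ± 0.12. The rise was not shared by every noncoding host. With the block, 4 rose by their 129 reads, Dancr being added (1.34, edgeR adjusted p = 0.00558). Of 30 protein-coding snoRNA hosts, 25 were tested in the 129 tables and 22 rose, with none lower. With both alleles summed, 18 of the 21 tested rose and 1 fell. With the replicate number blocked, 1 fell in the 129 tables: Eif4a2, named after its values were seen, at -0.41 (edgeR adjusted p = 0.0135), against -0.40 (0.0517) without the block. Among them Hspa9, a mitochondrial chaperone, rose by 2.30 ± 0.11, Ncl (nucleolin) by 2.26 ± 0.13 and Eif4a1, a translation initiation helicase, by 2.22 ± 0.14. On the Cast side 17 of the 20 tested rose, and 18 with the block, which added Eef2 (0.32, edgeR adjusted p = 0.0482, against 0.0689 without it).

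RNAs for proteins that bind snoRNAs were read in the same way. Of 9 names listed for the core of snoRNA particles, 7 were tested in the 129 tables and 6 rose, and 7 of 7 rose in the Cast tables. Nhp2, an H/ACA core protein, rose by 2.78 ± 0.17 in the 129 tables, the pseudouridine synthase Dkc1, itself a snoRNA host, by 2.30 ± 0.16, the methyltransferase fibrillarin (Fbl) by 2.21 ± 0.22 and Gar1 by 2.16 ± 0.41. With the block all 7 passed in the 129 tables, Nop10 being added (1.94, edgeR adjusted p = 2.03e-06). RNAs of assembly factors rose in 10 of 11 cases in each set of tables and in 11 of 11 with the block, which added Coil (edgeR adjusted p = 0.0016 and 0.00241), with Nolc1 at 2.57 ± 0.16, Ruvbl2 at 2.37 ± 0.19, Znhit6 at 1.54 ± 0.22 and Naf1 at 1.50 ± 0.24 in the 129 tables. Nonsense-mediated decay factors did not move together. On the 129 side 1 of 9 tested rose (Smg5, 0.61 ± 0.11) and 2 fell (the kinase Smg1, by 1.02 ± 0.30, and the endonuclease Smg6, by 0.78 ± 0.12), and their median was -0.21 on the log2 scale. The block added Smg8 to the genes that rose (0.54, edgeR adjusted p = 0.00694). Dancr, Eef2, Nop10, Coil and Smg8 were named for this change of call.

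The genes with the highest correlation of summed level with the mean of the 8 members over the 6 samples were Wdr76, Thoc3, Cdca4, Car12 and Enah, with Pearson r of 0.9994 to 0.9997 among 8646 genes compared. This is a description over 6 samples in 2 groups that lie far apart, in which 1957 genes had an r above 0.95. Car12 and Enah had no reads in naive cells (both at the floor of -1.18 log2 CPM) and differed between groups by 4.53 and 5.35, so their correlation rests on the CpG samples. The mean member level was 6.64, 6.67 and 6.72 log2 CPM in naive samples and 8.37, 8.51 and 8.29 in CpG samples, a difference of 1.71.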

How the data were processed

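Strand-specific total RNA libraries were made with a TruSeq Stranded Total RNA kit, per the labels. The 12 deposited tables hold whole-number read counts per gene, 1 on each strain's gene annotation for each of 6 samples. The submitters' processing notes name STAR, featureCounts, Subread 2.0.0 and mm10 without roles, while the deposited count tables close with tally rows of another counter's style, and how reads were assigned to a strain is not given in the sources used here. Of the reads in a table, 44.5% to 67.1% had no feature and 0.948% to 1.71% were ambiguous, and these tally rows were left out. Rows without a gene name held 5.10% to 19.7% of gene reads. Members and lists were chosen with earlier results of these data known.

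Counts were tested with edgeR 4.0.16 in R 4.3.3 (TMM, filterByExpr, robust quasi-likelihood, Benjamini-Hochberg over all genes tested, threshold 0.05), per strain's tables and, as an alternative, with both alleles summed over matched genes. Adjusted p-values throughout are from edgeR unless DESeq2 1.42.0 is named. Allele models had a term per sample and 1 library size for both alleles, over autosomal genes that reached 10 reads, alleles summed, in 3 samples or, within a group, in every sample. Intervals are Wilson's at 95% and cover counting error only. Libraries of a group differed beyond sampling noise (chi-square per degree of freedom 6.42 to 17.5), so each was 1 replicate, and where the labels name no mouse, p-values measure the spread between these samples. Naive and CpG samples with the same number deviated together from their group means (r = 0.560, 0.443 and 0.608 in the 129 tables and 0.228, 0.163 and 0.246 in the Cast tables). The main expression fits had no term for the number. A fit with the replicate number as a block, which takes the numbers as pairs, is given where it changes a call. The fits were tried on simulated counts. Only the simulation for the test between numbers held differences between replicate numbers. The trial therefore does not show how well the other fits find changes in genes such as Gas5. All members are named; from each list up to 4 genes past the threshold in the 129 tables with a mean of at least 50 reads were named by size of change, and the 5 genes most like the members by Pearson r. Alternatives were DESeq2, RLE scaling, no low-count filter, another read minimum, each allele's own library size, the block, and samples left out. Leaving out both samples of a number was chosen after seeing the data. A B cell marker and a gene near Gas5 are not reported here and were left out of the values given.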

Additional observations from a re-analysis of the deposited data

How the results depend on the processing

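In every expression fit run, all 8 members kept a positive change in both tables. In the 129 tables the members called ranged from 5 to 6 with 1 sample left out and were 7 with DESeq2, against 6, and in the Cast tables from 6 to 8 and 6 with DESeq2, against 7. Values from the block or without a number are given beside the members whose call they changed. Genes called in either direction ranged from 5216 to 5477 of 10902 to 11126 tested (129) with 1 sample left out. In the Cast tables they ranged from 5987 to 6319 of 10675 to 10854 tested. The design chosen called 5842 of 10581 (129) and 6445 of 10365 (Cast), and DESeq2 called 6065 and 6553.

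For the change of the Cast-to-129 ratio after CpG, the replicate block raised the genes called from 102 to 785, and leaving out 1 sample gave 16 to 30, while 0 of 8 members were called in each of these fits. The block changed no other call of a member than those of Gas5 and Snhg6 in the 129 tables. For Cast against 129 reads, leaving out 1 sample gave 1063 to 1593 genes in naive cells, against 2002, and 1031 to 1910 after CpG, against 1952. The members called after CpG, 2 in the design chosen, were 0 with each allele's own library size, 1 with at least 50 reads and 0 to 2 with 1 sample left out. Over all genes, own library sizes gave 2035 of 9150 called and at least 50 reads gave 1716 of 7339. What causes these shifts was not tested. Naive counts of 40 to 63 per table for Snhg4 and 40 to 133 for Snhg3 limit what can be seen of their alleles.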
